A study of Mus musculus with 4 samples.

Results

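The genes of cholesterol synthesis, of its control by the sterol regulatory element-binding proteins (SREBPs) and of sterol transport were examined in the hippocampus of mice given the antidepressant fluoxetine, a blocker of serotonin reuptake. The set holds 30 genes, taken by symbol: 20 enzymes of the synthesis pathway, 5 genes of SREBP control and 5 genes of sterol transport and turnover. Of these, 28 were named by at least 1 of the array's probesets (a probeset is a group of short probes for 1 transcript region), with 61 probesets among 45101 in all. Acat2 and Soat1 were named by none and were not analysed here. A probeset was tested where its intensity reached 100, the submitters' own minimum, on at least 2 of the 4 arrays. This kept 43 probesets of 27 set genes, among 16938 probesets and 9030 genes in the whole table. Mvd, mevalonate diphosphate decarboxylase, was the annotated gene that was not tested, with both of its probesets between 39.6 and 68.5 on every array.

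The fluoxetine group consisted of male DBA/2J mice, an inbred strain, that drank fluoxetine in their water at 18 mg/kg per day for 21 days. The control group consisted of male DBA/2J mice on untreated water (0 mg/kg per day). The labels give an age of 8 to 10 weeks for both groups. RNA from the hippocampi of 12 mice per group was pooled by 6, and the 2 resulting pools of a group were hybridised to 1 Affymetrix Mouse Genome 430 2.0 array each. Thus n is 2 pools per group, and the spread between single mice cannot be seen. The question here is how sterol genes differ between hippocampi with and without long fluoxetine treatment.

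Brain cholesterol is made within the brain, since lipoprotein cholesterol does not cross the blood-brain barrier to a useful extent, and most of it lies in myelin and in cell membranes. Astrocytes and myelinating oligodendrocytes are known as strong producers, and neurons dispose of the excess by hydroxylation. The pathway leads from acetyl-CoA through mevalonate and isoprenoids to squalene, then to lanosterol, and from there by removal of methyl groups and rearrangement of double bonds to cholesterol. When sterol is scarce, Scap escorts SREBP to the Golgi, where proteases release the part that enters the nucleus and activates synthesis genes, and when sterol is plentiful the Insig proteins hold Scap back.

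SREBP-bound promoters commonly combine a sterol regulatory element with a CCAAT box, which NF-Y binds, and a GC box, which Sp1 binds. RefSeq promoter windows of 250 bases before to 50 bases after a gene's start (build GRCm38.p6) were found for 25 of the 30 set genes. The windows of 3 synthesis genes described in detail further on are shown. They were chosen because, of the 3 patterns searched, 1 window matches all and 2 match those of the CCAAT and GC boxes alone. Capitals mark matches to TCACNCCAC, a form of the sterol regulatory element, to CCAAT and to GGGCGG, each searched on both strands, and in these windows no match overlapped another. Each sequence reads 5′ to 3′ along the gene's strand. Hmgcs1 lies at chr13:119690101-119690400 (plus strand), Cyp51 at chr5:4104648-4104947 (minus strand) and Nsdhl at chrX:72918271-72918570 (plus strand).

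Hmgcs1: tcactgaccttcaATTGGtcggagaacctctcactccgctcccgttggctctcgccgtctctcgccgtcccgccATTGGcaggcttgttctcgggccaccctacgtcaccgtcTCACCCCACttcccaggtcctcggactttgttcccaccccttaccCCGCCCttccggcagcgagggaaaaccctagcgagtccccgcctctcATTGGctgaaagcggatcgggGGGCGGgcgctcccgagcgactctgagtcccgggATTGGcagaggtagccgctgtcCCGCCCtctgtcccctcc
Cyp51: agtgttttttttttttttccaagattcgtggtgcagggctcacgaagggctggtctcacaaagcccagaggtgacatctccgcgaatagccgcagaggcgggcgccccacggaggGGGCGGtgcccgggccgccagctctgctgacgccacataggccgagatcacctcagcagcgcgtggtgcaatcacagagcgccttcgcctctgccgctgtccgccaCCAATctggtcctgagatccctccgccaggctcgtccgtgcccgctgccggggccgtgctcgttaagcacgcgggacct
Nsdhl: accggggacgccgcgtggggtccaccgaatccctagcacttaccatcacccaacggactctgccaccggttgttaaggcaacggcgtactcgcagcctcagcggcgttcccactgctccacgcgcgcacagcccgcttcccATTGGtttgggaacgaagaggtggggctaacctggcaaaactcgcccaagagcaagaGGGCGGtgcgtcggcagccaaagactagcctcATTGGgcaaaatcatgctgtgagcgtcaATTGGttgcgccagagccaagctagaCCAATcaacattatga

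Among the 25 set genes with a window, 22 (88%) held CCAAT, against 42.9% of the 7343 tested genes with a window and 37.4% of all 32851 windows. GGGCGG stood in 23 of the 25 (92%), against 71.7% of tested genes and 35.7% of all windows. TCACNCCAC stood in 1 of the 25, the window of Hmgcs1, and in 1.47% of tested genes and 1.24% of all windows. A match is a description of letters in this window only. Other forms of the sterol regulatory element were not searched, so a window without TCACNCCAC may still hold one.

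No gene of the set passed the test, while most synthesis enzymes measured higher in the fluoxetine pools, by less than 1.6-fold. By limma, with p-values adjusted after Benjamini and Hochberg across the 16938 probesets, 0 of the 43 set probesets had an adjusted p under 0.05, and the lowest was 0.0711, for Cyp51. Among all tested probesets, 1.72% passed. With each gene taken at its brightest probeset, 0 of 27 set genes rose and 0 fell, where 1.31% of all tested genes rose and 0.554% fell. At an unadjusted p under 0.05, 10 set genes were higher and 1 lower, against 9.37% and 12.7% of all tested genes. That total of 11 was 7 of 22 testable genes when probesets with the suffixes _s_at, _x_at or _a_at were left out. In the other alternatives with 2 pools per group it ranged from 10 to 13, with 13 under quantile normalization and under median centring. It was lower in each fit without 1 array, which leaves 1 pool in a group. No set gene reached the submitters' rule of at least 2-fold, which 0.930% of tested genes did.

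Of 18 tested enzymes, 15 had a log2 fold change above 0 and 3 below, with a median of 0.26 and a range of -0.20 to 0.59. The median over all 9030 tested genes was -0.03. In 12 of the 18 enzymes both fluoxetine pools lay above both control pools, which held for 23.6% of all tested genes, and in 2 both lay below, which held for 32.7%. The count of 15 ranged from 13 to 15 when each array was left out. Where the pools did not overlap, leaving out 1 array cannot turn a probeset's sign, so most enzymes could not move this count. The 5 SREBP control genes had a median of -0.04 and the 4 tested transport and turnover genes a median of 0.11. Over all 27 set genes the median was 0.19. The enzymes were chosen with earlier results of these data known, so these counts describe the list and carry no test.

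**Figure D1:**
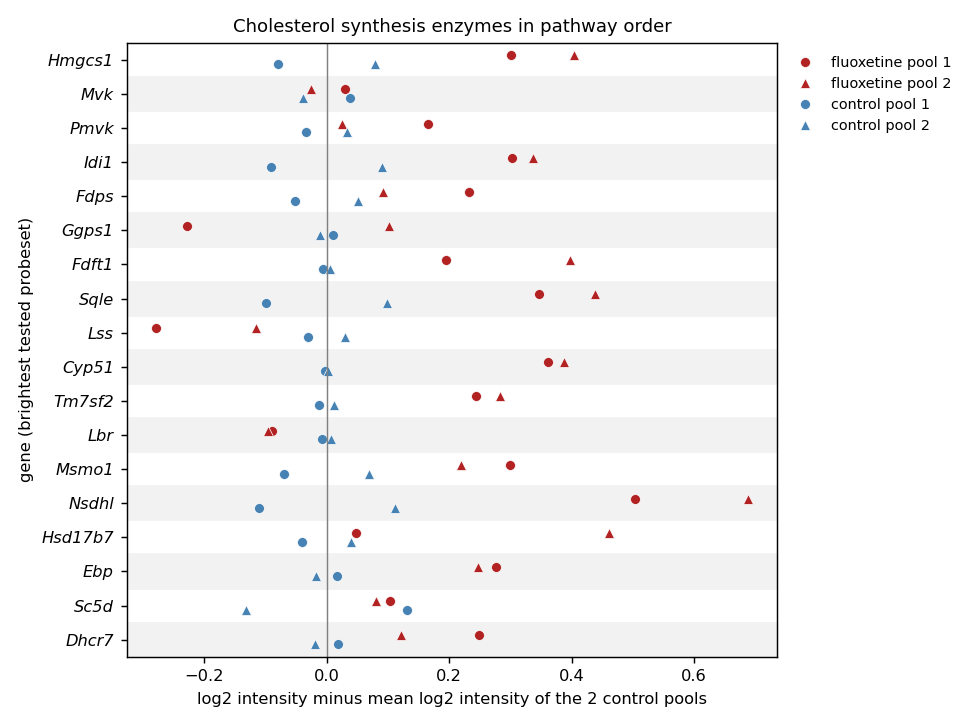
Each row is a synthesis enzyme at its brightest tested probeset, in pathway order from top to bottom, and the x axis gives the log2 intensity of each pool minus the mean of the 2 control pools. Red marks are fluoxetine pools and blue marks control pools, with circles for pool 1 and triangles for pool 2. In 12 of the 18 rows both red marks lie to the right of both blue marks, with Nsdhl farthest to the right, and in Lss and Lbr both lie to the left.

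At the start of the pathway, Hmgcs1 encodes the cytosolic synthase that joins acetoacetyl-CoA and acetyl-CoA into HMG-CoA, the precursor of mevalonate. Its brightest probeset read 10666 and 11455 in fluoxetine pools 1 and 2, against 8198 and 9146 in control pools 1 and 2. Both fluoxetine pools lay above both controls, at log2 0.35 ± 0.09 (SE, n = 2 pools per group, limma adjusted p = 0.120), or 1.28-fold. All 4 tested Hmgcs1 probesets had the same order of groups, with log2 fold changes between 0.32 and 0.35.

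The kinases that follow did not separate the groups. Mvk, mevalonate kinase, was at log2 0.00 with a 95% interval of -0.18 to 0.19, and Pmvk, phosphomevalonate kinase, at 0.10 (-0.12 to 0.31), or 0.03 without fluoxetine pool 1. The pools overlapped for both. The Mvk probeset lay just above the minimum, between 103 and 108 on the 4 arrays.

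Idi1 encodes isopentenyl-diphosphate isomerase, which makes the activated isoprene unit used for chain growth. It read 1899 and 1943 in the fluoxetine pools, against 1445 and 1639.5 in the control pools, without overlap (log2 0.32 ± 0.09, limma adjusted p = 0.137). Its other tested probeset gave 0.34 ± 0.17. Fdps, which builds farnesyl diphosphate, also had groups that did not overlap, at a smaller log2 0.16 ± 0.09, which was 0.09 without fluoxetine pool 1. Ggps1 encodes the synthase of geranylgeranyl diphosphate, which serves protein prenylation and leaves the sterol branch. All 3 of its tested probesets were below 0, at -0.06, -0.08 and -0.27, and at the brightest the pools overlapped. Without fluoxetine pool 1 that brightest probeset was at 0.10.

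Fdft1, squalene synthase, takes the first step committed to sterols. Its brightest probeset read 2991 and 3442 in the fluoxetine pools, against 2602 and 2624 in the control pools (log2 0.30 ± 0.09, limma adjusted p = 0.164). The groups did not overlap there, but the probeset carries the suffix _x_at, given to probes that can bind other transcripts, and the second tested probeset overlapped at 0.14 ± 0.10. Without fluoxetine pool 2 the brightest was at 0.19.

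Sqle encodes squalene epoxidase, an oxygen-dependent and rate-limiting step. Its single probeset read 1134 and 1208 in the fluoxetine pools, against 832 and 955 in the control pools. The fluoxetine pools were both higher, 1.31-fold on average (log2 0.39 ± 0.10, limma adjusted p = 0.115). The control pools themselves differed more from each other than the fluoxetine pools did.

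Lss, lanosterol synthase, closes the rings of the sterol skeleton, and its 2 tested probesets lay in opposite directions. The brighter one read 352 and 394 in the fluoxetine pools, against 418 and 436 in the control pools (log2 -0.20 ± 0.09, limma adjusted p = 0.263). The dimmer one read 157 and 127 in the fluoxetine pools, against 109 and 109.8 in the control pools (log2 0.37 ± 0.12, limma adjusted p = 0.177). The groups did not overlap at either probeset, so these data give no single direction for Lss. The dimmer probeset carries the suffix _s_at, and with suffixed probesets left out Lss was at log2 -0.20. The mean of both probesets was at log2 0.08.

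**Figure D2:**
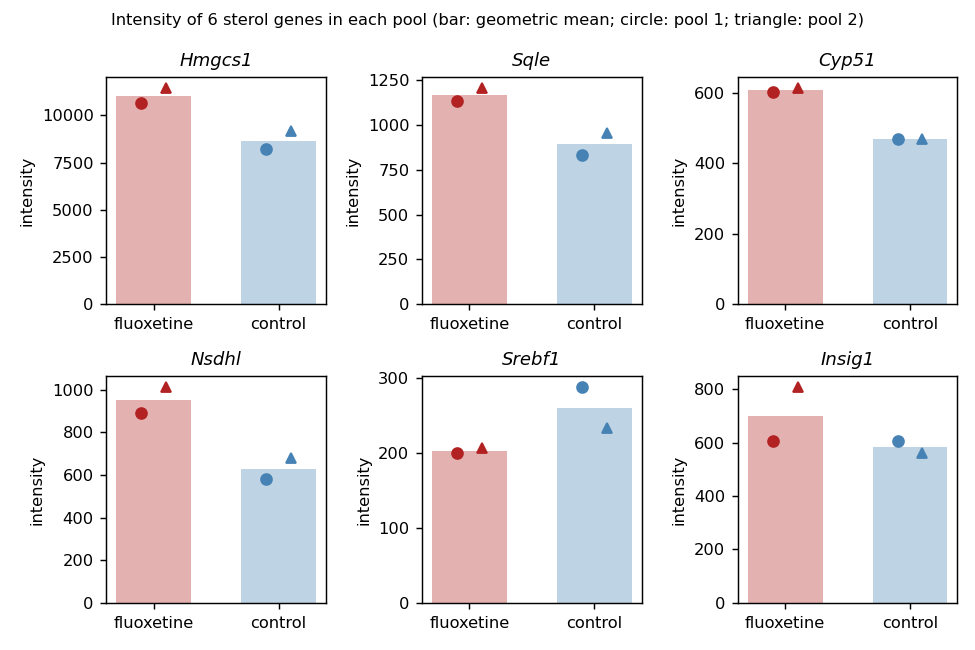
Each panel shows the intensity of 1 gene at its brightest tested probeset on a linear axis from 0, with the fluoxetine group left and the control group right. Bars are geometric means of 2 pools, circles pool 1 and triangles pool 2. The fluoxetine pools of Hmgcs1, Sqle, Cyp51 and Nsdhl lie above both control pools, those of Srebf1 lie below, and those of Insig1 overlap with the controls.

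Past lanosterol, 8 of 9 tested enzymes had a log2 fold change above 0, and 7 of the 9 had both fluoxetine pools above both controls, an order that 23.6% of all tested genes had. Cyp51 encodes lanosterol 14-alpha-demethylase, the first of these steps, and had the lowest adjusted p of the set. It read 603 and 614 in the fluoxetine pools, against 469 and 470.2 in the control pools. Within each group the pools differed by a few percent at most, while the groups lay 1.30-fold apart (log2 0.37 ± 0.06, 95% interval 0.21 to 0.54, limma adjusted p = 0.0711). A dimmer Cyp51 probeset overlapped (log2 -0.07 ± 0.09), and the mean of both was at 0.15. The brighter probeset passed where the minimum was raised to 200 (limma adjusted p = 0.0455). That setting tests fewer probesets, and why this one passed there was not tested.

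Sterol 14-reduction is shared by Tm7sf2 and by Lbr, a protein of the inner nuclear membrane that also anchors chromatin. Tm7sf2 read 265 and 272 in the fluoxetine pools, against 222 and 226 in the control pools (log2 0.26 ± 0.07, limma adjusted p = 0.119). Lbr had the reverse order, with both fluoxetine pools below both controls, at log2 -0.09 and a 95% interval of -0.26 to 0.07.

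Msmo1 and Nsdhl act in turn to strip the methyl groups at carbon 4, and Hsd17b7 completes that removal. Msmo1 had groups that did not overlap (log2 0.26 ± 0.08). Nsdhl, an X-linked dehydrogenase, had the largest log2 fold change of the set. It read 892 and 1013 in the fluoxetine pools, against 583 and 679.7 in the control pools. Its fluoxetine mean was 1.51 times the control mean (log2 0.59 ± 0.11, 95% interval 0.30 to 0.89, limma adjusted p = 0.0822), and the difference stayed between 0.48 and 0.71 with each array left out. Hsd17b7 was at log2 0.25 ± 0.15, from a probeset that can bind other transcripts, with most of its difference in fluoxetine pool 2 (417, against 313 in fluoxetine pool 1 and 295 and 312 in the control pools). Without fluoxetine pool 2 it was at 0.05.

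The last steps move and reduce double bonds. Ebp, the sterol isomerase, read 359.5 and 352 in the fluoxetine pools, against 300.2 and 293 in the control pools (log2 0.26 ± 0.07, limma adjusted p = 0.119). Both fluoxetine pools were higher, and pools of 1 group lay close together. Sc5d, the sterol desaturase, overlapped at its brighter tested probeset (log2 0.09 ± 0.11), while the dimmer one read 156 and 129 in the fluoxetine pools, against 106 and 100.3 in the control pools (log2 0.46 ± 0.11, limma adjusted p = 0.114). Dhcr7, the reductase of 7-dehydrocholesterol, had groups that did not overlap at log2 0.19 ± 0.08, or 0.12 without fluoxetine pool 1. The array values of Hsd17b7 and of the dimmer Sc5d probeset are given by a choice made after they were seen.

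**Figure D3:**
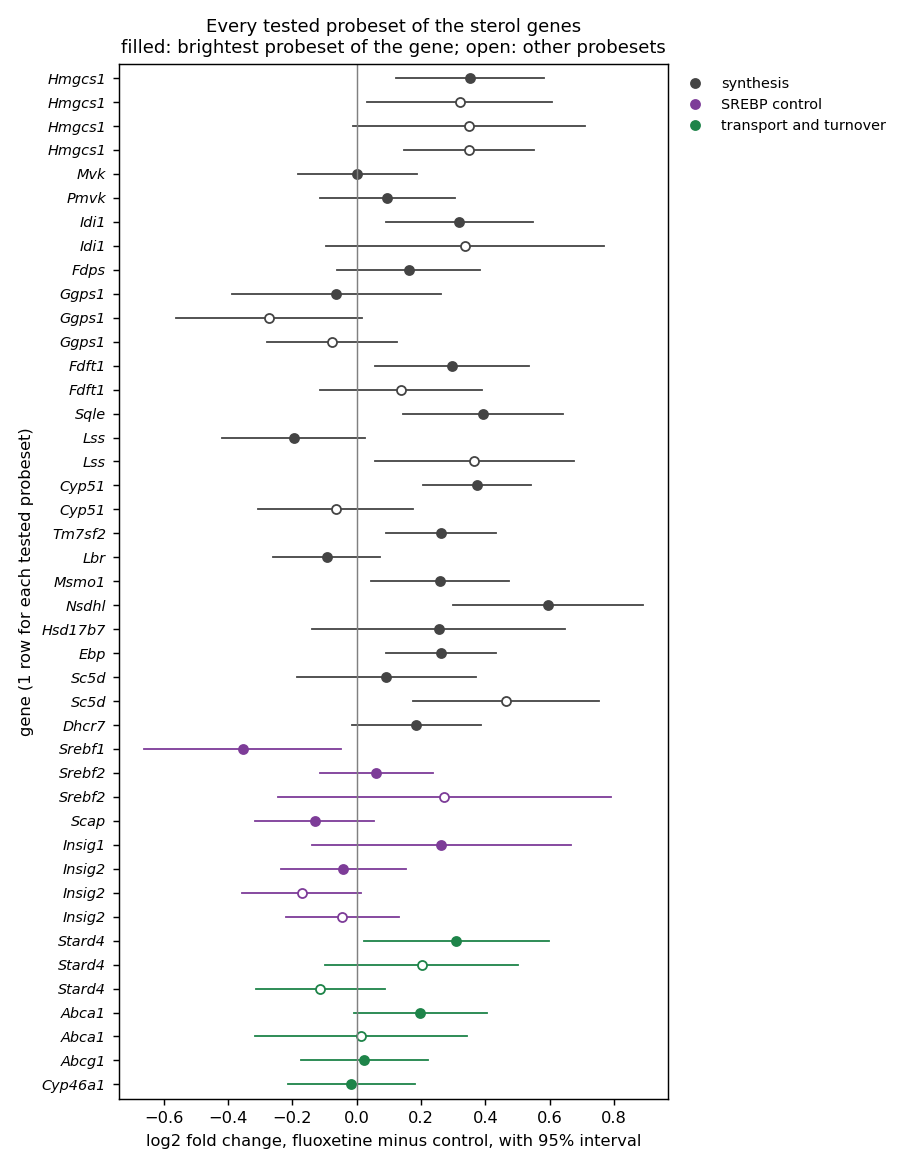
Each row is 1 of the 43 tested probesets, with the log2 fold change of fluoxetine minus control as a point and its 95% interval from limma as a line. Filled points are the brightest tested probeset of a gene and open points its others, coloured by role. The 4 Hmgcs1 rows lie together between 0.32 and 0.35, while the rows of Lss, Cyp51 and Stard4 stand on both sides of 0.

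Of 27 tested genes, 11 had more than 1 tested probeset. The probesets had the same sign in 8 of these genes and mixed signs in 3, which were Lss, Cyp51 and Stard4.

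The SREBP control genes did not move as 1 group. Srebf1 encodes the SREBP better known for fatty acid genes, and it was the set gene with the largest negative value. It read 199.7 and 207 in the fluoxetine pools, against 289 and 234 in the control pools. Both fluoxetine pools lay below both controls, at log2 -0.35 ± 0.12 (95% interval -0.66 to -0.05, limma adjusted p = 0.181). Without control pool 1 the difference was -0.20. Srebf2 encodes the SREBP better known for cholesterol genes, and its array values are given for that role, a choice made after they were seen. It read 427 and 409 in the fluoxetine pools, against 398 and 403 in the control pools, without overlap but only 1.04-fold apart (log2 0.06 ± 0.07, limma adjusted p = 0.628), and at 0.03 without fluoxetine pool 1. Its dimmer probeset overlapped at 0.27 ± 0.20.

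Scap, the escort of SREBP, read 995 and 938 in the fluoxetine pools, against 1076 and 1040.1 in the control pools. The fluoxetine pools were both slightly lower (log2 -0.13 ± 0.07, limma adjusted p = 0.347). Insig1 encodes the retention protein whose own gene is a known SREBP target. It read 606 and 808 in the fluoxetine pools, against 607 and 559.9 in the control pools, so that only fluoxetine pool 2 stood apart (log2 0.26 ± 0.15, limma adjusted p = 0.377). Without that pool the difference was 0.06. Insig2, the relative of Insig1, overlapped at its brightest probeset (log2 -0.04, 95% interval -0.24 to 0.15), and its 3 tested probesets lay between -0.17 and -0.04.

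**Figure D4:**
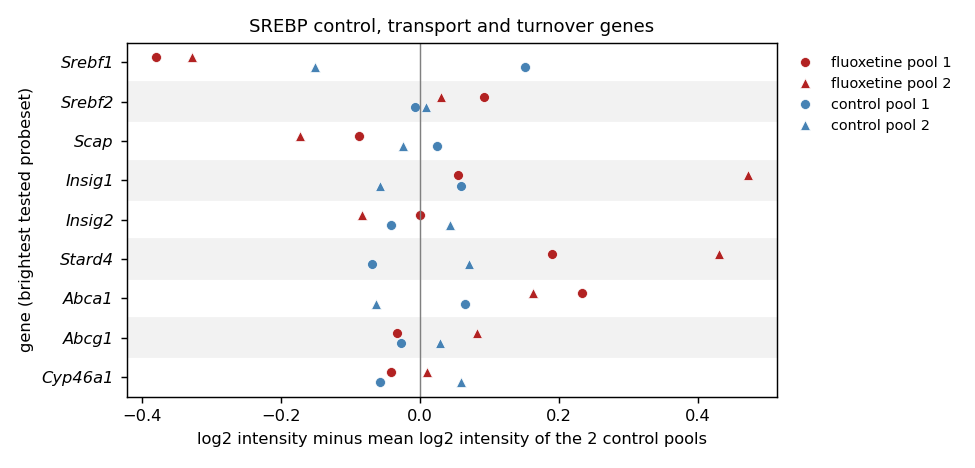
The rows are the SREBP control genes and, below them, the transport and turnover genes at their brightest tested probesets, and the x axis gives log2 intensity minus the mean of the 2 control pools. Red marks are fluoxetine pools and blue marks control pools. Both red marks lie left of the blue marks in Srebf1 and Scap and right of them in Srebf2, Stard4 and Abca1, and in Insig1 the triangle of fluoxetine pool 2 stands alone.

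Among transport and turnover genes, Stard4 encodes a carrier that moves cholesterol between membranes and is a known SREBP target. Its brightest probeset read 469 and 555 in the fluoxetine pools, against 392 and 432 in the control pools (log2 0.31 ± 0.11, limma adjusted p = 0.201). The groups did not overlap there, and without fluoxetine pool 2 the difference was 0.19. A second probeset was also higher in both fluoxetine pools (329 and 346, against 324 and 266 in the control pools, log2 0.20 ± 0.12), and the third was lower in both (259.9 and 243, against 281 and 263 in the control pools, log2 -0.11 ± 0.08).

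Abca1 encodes the exporter that loads cholesterol onto lipoprotein particles and is induced by liver X receptors. Its brightest probeset read 1229 and 1170.0 in the fluoxetine pools, against 1093 and 1000.3 in the control pools. The groups did not overlap, at log2 0.20 ± 0.08 (95% interval -0.01 to 0.40, limma adjusted p = 0.237), and the dimmer probeset overlapped at 0.01. Abcg1, an exporter of the same receptor programme, read 730.3 and 791 in the fluoxetine pools, against 733 and 762 in the control pools. The pools overlapped (log2 0.02, 95% interval -0.17 to 0.22, limma adjusted p = 0.878). Cyp46a1, the neuronal 24-hydroxylase that lets cholesterol leave the brain, overlapped too (log2 -0.02, -0.21 to 0.18).

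**Figure D5:**
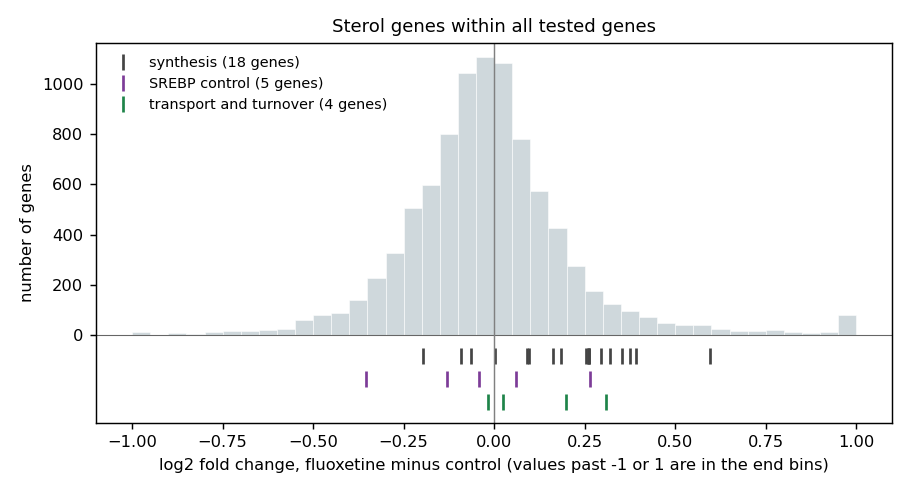
Grey bars count all 9030 tested genes by log2 fold change of fluoxetine minus control, with values past -1 or 1 in the end bins, and the ticks below show the set genes by role. The bars centre near -0.03, the 18 synthesis ticks run from -0.20 to 0.59 with a median of 0.26, and the control and transport ticks lie on both sides of 0.

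Genes next to the set in sterol handling and in the fatty acid arm of the SREBP programme were taken from lists written down by function. Of 28 tested other sterol genes, 1 rose and 0 fell, where 1.31% of all tested genes rose and 0.554% fell, and their median log2 was 0.03. The gene that rose was Npc2, the lysosomal cholesterol carrier, at 1415 and 1452 in the fluoxetine pools against 1014 and 937 in the control pools (log2 0.56 ± 0.07, limma adjusted p = 0.0495). Its dimmer tested probeset, also without overlap, was at 0.37 ± 0.08 and did not pass (limma adjusted p = 0.0940). With each array left out the brighter probeset stayed between 0.50 and 0.61. The call was lost with the pool number as a block, where far fewer probesets of the whole table passed. Other genes of this list had differences as large or larger that did not pass. Lipa, lysosomal acid lipase, was at log2 0.57 ± 0.08 (adjusted p = 0.0507), and Cav1, the cholesterol-binding coat protein of caveolae, had the largest difference of the list at 1.18 ± 0.21 (adjusted p = 0.0754). Osbpl1a, an oxysterol-binding protein relative, had a smaller difference than Npc2, at -0.32 ± 0.10 (adjusted p = 0.153), and was at -0.21 without control pool 2.

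The proteases that cut SREBP, named for that role after their values were seen, were at log2 -0.32 ± 0.08 for Mbtps1 (adjusted p = 0.110) and 0.02 ± 0.07 for Mbtps2. Mbtps1 had both fluoxetine pools below both controls, at 732 and 679, against 901 and 863 in the control pools. Of 14 tested fatty acid genes 0 passed by limma, with a median log2 of 0.10, and at an unadjusted p under 0.05 there were 4 higher and 2 lower, against 9.37% and 12.7% of all tested genes. The largest differences were Me1, malic enzyme, at 0.43 ± 0.07 (adjusted p = 0.0707), and Gpam, the acyltransferase that starts triglyceride synthesis, at 0.41 ± 0.06 (adjusted p = 0.0636). Acss2, acetyl-CoA synthetase, was at 0.29 ± 0.08 and Scd1, a fatty acid desaturase, at 0.26 ± 0.10, which was 0.15 without fluoxetine pool 2.

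Markers of cell types that make or handle sterol moved with the groups in part. In bulk tissue, fewer cells of a type and less RNA per cell cannot be told apart. Among all tested genes 1.31% rose and 0.554% fell. Of 9 tested microglia markers 5 rose (Tyrobp, C1qa, C1qb, Cd53 and Ctss) and 0 fell, and their summed intensity was 11274 to 11683 in the fluoxetine pools, against 7073 to 7307 in the control pools. Of 11 tested astrocyte markers 3 rose (Gfap, Vim and Aqp4) and 0 fell, with sums of 83248 to 84711 in the fluoxetine pools, against 68911 to 71217 in the control pools. The astrocyte list was mixed: 8 of 11 lay above 0 and 3 below, from log2 2.78 for Gfap to -0.44 for Fgfr3, which was lower in both fluoxetine pools (limma adjusted p = 0.110), and the pools overlapped for Aldh1l1, Aldoc and Sox9. Of 8 endothelial and mural markers 2 rose (Rgs5 and Abcc9) and 0 fell (sums 7130.2 to 7209 in the fluoxetine pools, against 5476 to 5518 in the control pools). The 10 tested oligodendrocyte markers gave 0 calls by limma and 0 at an unadjusted p under 0.05, with a median log2 of -0.03. Their sums were 58672 to 58807 in the fluoxetine pools, against 60802 to 61722 in the control pools. Mbp alone made up most of each sum, at 37837 and 37188.5 in the fluoxetine pools, against 39491.5 and 40243.5 in the control pools. The pools overlapped for 5 of the 10 markers. Both fluoxetine pools lay below both controls for 3 and above for 2, against 32.7% and 23.6% of all tested genes. Markers that did not reach the minimum were left out of these counts and sums, among them Pecam1 at 6.6 on every array. The part of these cell types in the sterol gene values was not tested.

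All 12 hippocampal neuron markers were tested. Of these, 0 rose and 1 fell (Dsp, at log2 -1.79), where 1.31% of all tested genes rose and 0.554% fell. At an unadjusted p under 0.05, 2 were higher and 3 lower, against 9.37% and 12.7% of all tested genes. Their median log2 was -0.06. Single neuron markers lay far from that median in both directions without passing at the brightest probeset: C1ql2 was at 1.11 (limma adjusted p = 0.0636), Fibcd1 at -0.82 (0.162) and Calb1 at -0.45 (0.0771). A dimmer Calb1 probeset fell, at log2 -1.16 (limma adjusted p = 0.0436). These markers were named after their values were seen. Transthyretin (Ttr), the chief transcript of the choroid plexus, followed pool number, at 51101 and 4429 in fluoxetine pools 1 and 2, against 37856 and 2002 in control pools 1 and 2. For the set genes, the median of pool 2 minus pool 1 was log2 0.03 in fluoxetine and 0.02 in control. Blood markers had 0 tested members. The median intensity of all probesets lay between 22.6 and 23.3 on the 4 arrays. All 18 probesets of the hybridisation spike-ins, RNAs of non-mouse origin added in fixed amount, were higher on both fluoxetine arrays (median log2 0.36, 0.17 to 0.55). The part of this in the sterol gene values was not tested. The number of arrays limits the precision.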

How the data were processed

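Total RNA of pooled mouse hippocampi was measured on 4 Affymetrix arrays. The deposited table holds linear intensities, 1 for each probeset on each array. Per the labels, the authors obtained them in ArrayAssist by the GCRMA algorithm. The versions are not stated there. Groups and pool numbers came from the sample titles. Values were taken to log2 with no pseudocount. The 64 Affymetrix control probesets among 45101 were set aside, and the 16938 that reached 100 on at least 2 arrays were tested. Genes were named by the platform annotation from probesets with 1 symbol (34958; 932 had several and 9211 none), of which 34754 matched RefSeq by gene number, with 0 symbols changed.

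The test was limma (version 3.58.1, under R 4.3.3; lmFit, eBayes, no covariate, two-sided, Benjamini-Hochberg over all tested probesets, threshold 0.05), tested on simulated data. An exact permutation test of 2 against 2 pools cannot give a p under 0.333. Errors are limma standard errors, and a gene was counted at its brightest tested probeset. The members and lists were chosen with earlier results of these data known. Named with array values were the 8 synthesis, 3 control and 3 transport genes of largest absolute change and genes with probesets of opposite sign, with the exceptions the text states; other lists named their calls and up to 4 largest changes. Alternatives were other filters, median centring, quantile normalization, a pseudocount of 32, a floor of 100, probeset choices, trend and robust settings, the pool number as a block, each array left out, and the 2-fold rule.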

Additional observations from a re-analysis of the deposited data

How the results depend on the processing

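The count of 0 set genes passing stayed 0 in every alternative with 2 pools per group except a minimum of 200, where 1 passed (Cyp51). With no filter nothing in the whole table passed, so this count was fixed there. The fits without 1 array leave 1 pool in a group, and no weight is put on their counts. The median log2 fold change of the set genes, 0.19, became 0.17 with no filter, 0.22 with quantile normalization and 0.21 with median centring. It was 0.17 with a pseudocount of 32, 0.16 for the mean of all tested probesets and 0.17 without _s_at, _x_at and _a_at probesets. With each array left out it ranged from 0.12 to 0.20. The 1 call among other pathway genes became 0 with a minimum of 100 on 1 array, with no filter and without suffixed probesets. It became 5 with a minimum of 200, 2 with quantile normalization, 4 with median centring, 2 with a pseudocount of 32, 3 for mean probesets and 5 with trend and robust settings. With the pool number as a replicate block it was 0, the set stayed at 0 calls, and the whole table gave 9 calls in place of 291. The pool 1 minus pool 2 differences of the groups correlated at r = 0.14 over all tested probesets. The labels give no shared batch, while Ttr followed pool number in both groups. What pools of the same number share was not tested.

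Whole-table calls were 163 with a minimum of 100 on 1 array, 507 with 200 on 2 arrays, 0 with no filter, 193 without suffixed probesets, 532 with trend and robust settings and 0 without any 1 array. Of 291 set gene values under 11 alternatives, 287 kept direction and side of the threshold. Several alternatives, such as the other filters, the trend and robust settings and the block, leave a probeset's fold change as it is. No set gene passed in the main fit either, so this count was largely fixed beforehand. The direction turned for Cyp46a1 with quantile normalization (0.0155) and median centring (0.0114) and for Lss in the mean of its probesets (0.0846). With each array left out, values near 0 changed sign, with ranges of -0.0335 to 0.0818 for Abcg1, -0.0751 to 0.0420 for Cyp46a1, -0.23 to 0.10 for Ggps1, -0.0843 to 0.00040 for Insig2, -0.0368 to 0.0415 for Mvk, -0.0402 to 0.22 for Sc5d and -0.0128 to 0.0544 for Mbtps2. The cause of these changes was not tested.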
